A study of Mus musculus with 6 samples.

Results

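The genes described here are 39 genes of the nephron, the filtering and reabsorbing unit of the kidney, followed through 6 RNA-seq libraries made from mouse liver. They were chosen by gene symbol from a list of nephron segment genes drawn up because 1 library, labelled knockout replicate 1, listed many of them far above the other 5, so the contrast of that library with the rest is given as a description and without a test. Of the 39 genes, 30 could be read by symbol among 22794 usable rows of 24927, and the expression of the other 9 is not analysed here (Slc34a3, Slc22a12, Slc22a13, Slc5a2, Miox, Ggt1, Aqp2, Cdh16 and Pax2). The series compares 3 libraries labelled wild type with 3 libraries labelled Cdkl3-/-, a knockout of Cdkl3, which encodes a cyclin-dependent kinase-like protein, to see how its loss changes liver expression. All 6 are labelled as whole liver from male C57BL/6 mice aged 10 months with free access to a chow diet, and the labels give no promoter, Cre or clone for the knockout. The labels do not say in words that each library came from its own mouse, so every p-value below measures the spread between these libraries.

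In the nephron, podocytes form the filter, the proximal tubule takes back most of the filtered sodium, phosphate, sugars, amino acids and proteins, the thick ascending limb takes up salt without water, and the distal, connecting and collecting segments set the final salt, calcium, acid and water balance. Each segment carries its own set of solute carriers, so transporter transcripts serve as markers of position along the tubule. Liver cells share a few of these carriers, such as the sodium bicarbonate cotransporter Slc4a4 and the urate and phosphate carriers Slc17a1 and Slc17a3.

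Depth, recovered from the step that 1 read is worth in each table, ran from 20460000 to 48610000 counted reads, with 24530000 in knockout replicate 1. All 118 low values of the 30 genes were whole reads to within 0.15 read. These include the values of 0, which are whole by construction, and 30.0% of values above 0 would be whole by chance. FPKM, the fragments of a gene divided by its transcript length and by library depth, is a level per length, so levels are compared between genes on that scale. Mitochondrial transcripts took 63.17% to 73.88% of all FPKM. Hepatocyte markers, 12 genes in all, summed to 1483.5 to 2365.4 FPKM in wild type and 5009.5 to 6703.8 FPKM in knockout. Not every marker followed the sum. Arg1 was at 154.4 to 379.7 FPKM in wild type and at 128.9 to 151.7 FPKM in knockout. The groups overlapped for Pck1 (69.6 to 107.0 FPKM in wild type, 56.0 to 167.4 FPKM in knockout). They also overlapped for Hnf4a (4.8 to 6.09 FPKM in wild type, 5.14 to 11.4 FPKM in knockout). In every library Apoa1 was at most 1.94 FPKM and Ass1 at most 0.152 FPKM. Apoa1 did follow the sum, with every knockout library above every wild type library. Albumin (Alb) was listed at 742.8 FPKM in knockout replicate 1, the lowest of its group. It was at 1612.9 and 1056.5 FPKM in knockout replicates 2 and 3 and at 260.6 to 424.9 FPKM in wild type. Cdkl3 did not separate the groups it names. It was at 0.166, 0.0883 and 0.119 FPKM in wild type replicates 1 to 3 and at 0.0761, 0.146 and 0.195 FPKM in knockout replicates 1 to 3, or 10 to 32 reads. Against the male label of all 6, Xist, the RNA of the inactive X chromosome, was at 191.7 to 291.9 FPKM in the wild type group and at most 0.0273 FPKM in the knockout group, while the Y-linked Ddx3y was at 0.0694 to 0.207 FPKM in the former and 38.2 to 50.8 FPKM in the latter. In every comparison of knockout with wild type below, the genotype label and this difference in sex-linked transcripts cannot be told apart.

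Promoter sequence of 4 of the genes, all of the proximal tubule, is shown first as examples of some of the patterns described below. Genes of other segments and genes lower in the knockout libraries are not among them. Kap, the kidney androgen-regulated protein of the proximal tubule, and Acsm2, a mitochondrial medium-chain acyl-CoA synthetase, were far higher in knockout replicate 1 and still measurable in the other knockout libraries. Slc22a6, the basolateral organic anion transporter that takes up drugs and anions from blood, was read in that library alone. Slc17a3 was present in all 6 libraries. Each sequence is the 250 bases before the annotated start from RefSeq (GRCm38.p6), 5′ to 3′ on the strand of the gene, at chr6:133853668-133853917 on the minus strand for Kap, and on the plus strand at chr7:119554090-119554339 for Acsm2, chr19:8617746-8617995 for Slc22a6 and chr13:23839184-23839433 for Slc17a3. Capitals mark matches to the TATA box letters TATAAA, to GTTAAT, one arm of the palindrome bound by the tubule and liver factor HNF1, or to TGTTCT, one arm of the element bound by steroid receptors, on either strand.
Kap: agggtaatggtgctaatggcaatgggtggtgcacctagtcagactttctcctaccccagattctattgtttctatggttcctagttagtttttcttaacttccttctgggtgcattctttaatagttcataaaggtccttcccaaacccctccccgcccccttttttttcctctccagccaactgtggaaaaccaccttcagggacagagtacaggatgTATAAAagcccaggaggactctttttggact
Acsm2: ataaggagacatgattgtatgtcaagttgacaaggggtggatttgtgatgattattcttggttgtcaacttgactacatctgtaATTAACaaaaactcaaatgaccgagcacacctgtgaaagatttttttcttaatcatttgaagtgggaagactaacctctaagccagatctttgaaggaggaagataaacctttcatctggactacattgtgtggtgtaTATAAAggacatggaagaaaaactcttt
Slc22a6: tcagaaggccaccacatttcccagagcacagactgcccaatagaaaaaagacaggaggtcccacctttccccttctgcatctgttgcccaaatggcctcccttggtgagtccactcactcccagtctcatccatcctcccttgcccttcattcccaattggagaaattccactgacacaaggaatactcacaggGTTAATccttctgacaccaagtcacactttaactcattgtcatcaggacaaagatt
Slc17a3: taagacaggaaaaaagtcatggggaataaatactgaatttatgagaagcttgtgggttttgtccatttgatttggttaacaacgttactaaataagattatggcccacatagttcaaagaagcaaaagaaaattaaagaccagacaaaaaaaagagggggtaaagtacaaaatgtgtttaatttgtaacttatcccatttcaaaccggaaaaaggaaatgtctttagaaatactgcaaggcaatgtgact
The TATA match began 31 bases before the start in Kap and 28 bases before it in Acsm2. A match to GTTAAT began 166 bases before the start in Acsm2 and 56 bases before it in Slc22a6, and Slc17a3 held none of the 3 motifs in this window. Over the 27 listed genes with a RefSeq entry, 7 of them genes whose expression is not analysed here, 5 (18.5%) held TATAAA, 6 (22.2%) held GTTAAT and 5 (18.5%) held TGTTCT, against 12.4%, 6.43% and 16.1% of 32851 promoters of the same length. A listed gene was read at its entry nearest the GENCODE start, and the 32851 count every entry, so the shares are not strictly alike. By any entry, 6 listed genes held TATAAA. The nearest entry lay as far as 12229 bases from the GENCODE start, in Slc6a19. In the sequences shown, no match of a motif overlapped a match of another. The other 12 listed genes had no entry, among them Slc7a13, Calb1 and Cyp24a1, which are described below.

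Nephron transcripts were concentrated in knockout replicate 1. Of the 30 genes, 19 were at 1 FPKM or more in that library, against 4 to 7 in each of the other 5. Knockout replicate 1 was the highest of the 6 libraries for 23 of the 30 genes. Over the 6938 rows that reached 1 FPKM in any library it was highest for 13.3%, and 20 of the 30 nephron genes met that limit, of which it was highest for 16. The other 10 stayed under 1 FPKM everywhere, some with a few reads, and it was highest for 7 of them. In 8 of the 30 it exceeded the highest of the other 5 libraries by at least 2 on the log2(FPKM + 1) scale, that is 4-fold on FPKM + 1, all among those 20, and this happened for 30 of the 6938 rows (0.432%). These 8 were Kap, Slc7a13, Acsm2, Slc5a8, Calb1, Slc12a1, Cyp24a1 and Slc22a6. Slc22a6 lay just inside that limit, at 2.05, and Kl just outside, at 1.97. In the same count for each other library, 1, 2 and 2 rows stood apart in wild type replicates 1 to 3 and 2 and 17 in knockout replicates 2 and 3, and no nephron gene was among them. The median difference over the 30 genes was 1.16. The genes were chosen on this contrast, so these counts describe the choice. In bulk tissue, fewer cells of a type and less RNA per cell cannot be told apart.

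**Figure D1:**
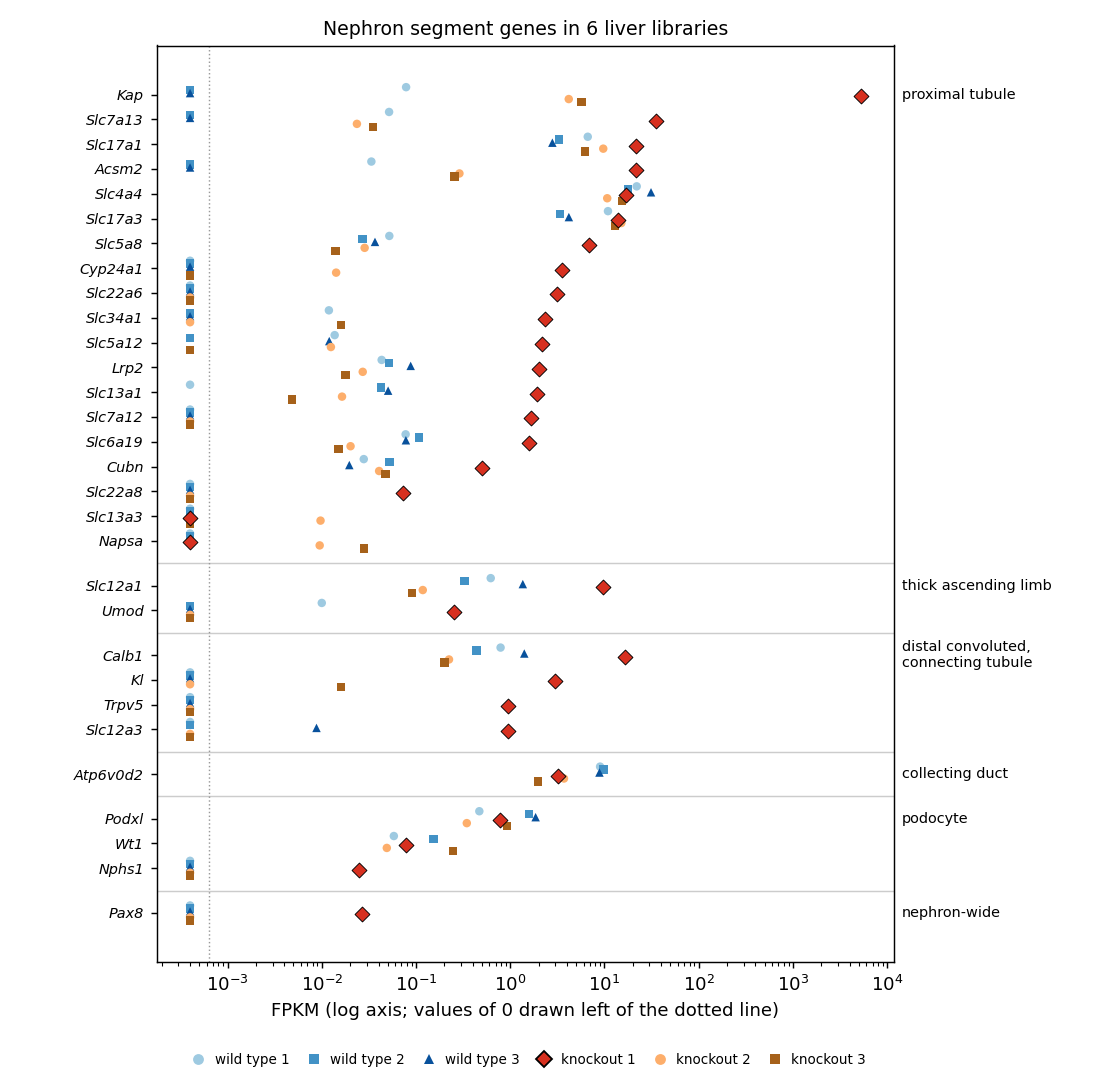
FPKM of the 30 nephron genes (log axis, 1 row per gene, grouped by segment) in the 6 libraries, with values of 0 drawn left of the dotted line. The red diamonds of knockout replicate 1 lie right of every other library for 23 genes, while Slc4a4, Slc17a3, Atp6v0d2, Podxl, Wt1, Slc13a3 and Napsa are exceptions.

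Kap made up most of the summed nephron level in knockout replicate 1, 5263.7 of 5434.6 FPKM. It was at 0.0785, 0 and 0 FPKM in wild type replicates 1 to 3 and at 5263.7, 4.18 and 5.72 FPKM in knockout replicates 1 to 3, or 91285, 117 and 108 reads. Knockout replicate 1 was 920.8 times the next library, and the other knockout libraries, at 0.0795% and 0.109% of it, were both above every wild type library. In knockout replicate 1 the gene made up 3.49% of all FPKM outside the mitochondrial genes and ranked 12 among all rows. Without it, the summed level of the other 18 proximal tubule genes was 135.2 FPKM there and 24.6 to 39.8 FPKM elsewhere.

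Among the proximal tubule genes of amino acid handling, Slc7a13, a cystine and acidic amino acid carrier of the straight segment, was at 0.0518, 0 and 0 FPKM in the wild type libraries and at 35.3, 0.0236 and 0.035 FPKM in the knockout libraries. Knockout replicate 1 stood 680.9 times above the next library, and the other knockout libraries held only 2 reads each. Slc7a12, a related carrier, was at 1.66 FPKM (71 reads) in knockout replicate 1 and at 0 in the other 5, at least 19.7-fold higher, with 3 reads in a library taken as the floor. Slc6a19, which carries neutral amino acids across the brush border, was at 0.0776, 0.107 and 0.0781 FPKM in wild type and at 1.6, 0.0202 and 0.015 FPKM in knockout. It therefore ran 14.9 times above the next library in knockout replicate 1 and below every wild type library in the other knockout libraries.

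The acyl-CoA synthetase Acsm2, the lactate carriers Slc5a8 and Slc5a12, the organic anion carriers Slc22a6 and Slc22a8, and Slc34a1 and Slc13a1 were also highest in knockout replicate 1. Acsm2 was at 0.0336, 0 and 0 FPKM in wild type and at 21.7, 0.289 and 0.257 FPKM in knockout, or 9, 0 and 0 reads and 3957, 85 and 51 reads. Slc5a8, the high-affinity lactate cotransporter, was at 0.0521, 0.027 and 0.0367 FPKM in wild type and at 6.90, 0.0285 and 0.014 FPKM in knockout. The ratio of knockout replicate 1 to the next library was 75.1 for Acsm2 and 132.5 for Slc5a8. Slc5a12, the low-affinity lactate cotransporter, was at 2.16 FPKM (215 reads) in knockout replicate 1 and at 0 to 0.0137 FPKM elsewhere. Slc22a6 was at 3.13 FPKM (306 reads) there and at 0 in the other 5, at least 85.1-fold above the 3-read floor. Its neighbour Slc22a8, a second organic anion transporter, held 7 reads in knockout replicate 1 (0.073 FPKM) and 0 elsewhere, so the pair differed in level within that library. Slc34a1, the sodium phosphate cotransporter that sets phosphate reabsorption, was at 2.34 FPKM in knockout replicate 1 and at 0 to 0.016 FPKM elsewhere. Slc13a1, the sulfate cotransporter, was at 1.91 FPKM there and at most 0.0506 FPKM elsewhere, a ratio of 37.8. Slc13a3, the dicarboxylate cotransporter, held 2 reads in knockout replicate 2 and 0 in the other 5 libraries, too few to give an order.

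The endocytic receptors Lrp2 and Cubn and the enzyme Cyp24a1 were highest in that library. Lrp2, which encodes megalin, was at 0.0432, 0.0517 and 0.0878 FPKM in wild type and at 2.02, 0.0272 and 0.0179 FPKM in knockout, where 827 reads gave a ratio of 23.0 to the next library. Its partner Cubn, cubilin, reached only 0.502 FPKM in knockout replicate 1 and 0.0196 to 0.0523 FPKM elsewhere, a ratio of 9.60. Cyp24a1, the mitochondrial enzyme that degrades active vitamin D, was at 3.57 FPKM (312 reads) there, at 0.0142 FPKM (2 reads) in knockout replicate 2 and at 0 in the other 4. Napsa, an aspartic protease of lung and kidney, had 0 reads in knockout replicate 1 and 1 and 2 reads in the other knockout libraries, again too few to give an order.

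Slc4a4, Slc17a1 and Slc17a3 were present in every library. Slc4a4 was at 22, 17.7 and 31.2 FPKM in wild type and at 16.8, 10.7 and 15.3 FPKM in knockout, with every knockout library below every wild type library. Slc17a3 was at 10.9, 3.38 and 4.19 FPKM in wild type and at 13.8, 15.1 and 13.0 FPKM in knockout, with knockout replicate 1 between the other knockout libraries. Slc17a1 was at 6.65, 3.31 and 2.80 FPKM in wild type and at 21.8, 9.71 and 6.23 FPKM in knockout, so wild type replicate 1 lay above knockout replicate 3 and knockout replicate 1 lay 2.24 times above the next library.

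Distal segments were represented too. In the thick ascending limb, Slc12a1, the sodium, potassium and chloride cotransporter blocked by loop diuretics, was at 0.621, 0.328 and 1.36 FPKM in wild type and at 9.77, 0.118 and 0.0909 FPKM in knockout. Knockout replicate 1 was 7.20 times the next library, and the other knockout libraries lay below every wild type library. Umod, which encodes uromodulin, the most abundant protein of normal urine, held only 17 reads in knockout replicate 1 (0.251 FPKM), 1 read in wild type replicate 1 and 0 elsewhere.

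In the distal convoluted and connecting tubule, Calb1, the cytosolic calcium carrier calbindin, was at 0.790, 0.437 and 1.41 FPKM in wild type and at 16.6, 0.224 and 0.201 FPKM in knockout. It followed the order of Slc12a1, with knockout replicate 1 at 11.8 times the next library and the other knockout libraries lowest. Kl, the co-receptor klotho for a phosphate-lowering hormone, was at 2.98 FPKM (681 reads) in knockout replicate 1, at 0.016 FPKM (4 reads) in knockout replicate 3 and at 0 in the other 4. Trpv5, the apical calcium channel, was at 0.955 FPKM (76 reads) there and at 0 in the other 5, at least 21.1-fold above the 3-read floor. Slc12a3, the thiazide-sensitive sodium chloride cotransporter, was at 0.939 FPKM (256 reads) there, at 2 reads in wild type replicate 3 and at 0 in the other 4.

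Of the collecting duct and podocyte genes on the list, Atp6v0d2, Podxl and Wt1 were not highest in knockout replicate 1. Atp6v0d2, a subunit of the proton pump of acid-secreting intercalated cells that other cell types also make, was at 8.99, 9.74 and 8.85 FPKM in wild type and at 3.18, 3.72 and 1.96 FPKM in knockout, with knockout replicate 1 between the other knockout libraries. It is the only collecting duct gene of the 39 with a value here, and further genes of that segment are given with the second kidney list below. Among the podocyte genes, Nphs1, which encodes nephrin of the slit diaphragm, held 4 reads in knockout replicate 1 (0.0246 FPKM) and 0 elsewhere. Podxl, podocalyxin, which blood vessel cells also make, was at 0.470, 1.59 and 1.86 FPKM in wild type and at 0.787, 0.346 and 0.921 FPKM in knockout, with overlapping groups. Wt1, a transcription factor of podocytes and of the lining of abdominal organs, was at 0.0582, 0.153 and 0.0789 FPKM in wild type and at 0.0790, 0.0490 and 0.248 FPKM in knockout. The 3 podocyte genes summed to 0.891 FPKM in knockout replicate 1, inside the range of 0.394 to 1.94 FPKM of the other 5. Pax8, a regulator of nephron formation, held 4 reads in knockout replicate 1 (0.0269 FPKM) and 0 elsewhere.

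Set by level per length in knockout replicate 1, the order was Kap, then Slc7a13, then Slc17a1 and Acsm2, which differed by less than 1 FPKM, then Slc4a4, Calb1, Slc17a3, Slc12a1 and Slc5a8. The segment sums there were 135.2 FPKM for the proximal tubule without Kap, 21.5 FPKM for the distal convoluted and connecting tubule, 10.0 FPKM for the thick ascending limb, 3.18 FPKM for the collecting duct and 0.891 FPKM for the podocyte. The lists run from 1 collecting duct gene to 19 proximal tubule genes with Kap, so these sums do not rank the segments. The proximal tubule sum includes Slc4a4, Slc17a1 and Slc17a3 (16.8, 21.8 and 13.8 FPKM), which were present in every library. The collecting duct sum is Atp6v0d2 alone, which was lower there than in every wild type library. The distal convoluted and connecting tubule summed to 0.217 to 1.42 FPKM and the thick ascending limb to 0.0909 to 1.36 FPKM in the other 5 libraries.

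A second list of 94 kidney genes, not among the 39, was read in the same way, and 73 of its genes were analysed. In knockout replicate 1, 24 of the 73 were at 1 FPKM or more, beside 6016 of all 24927 rows. The list summed to 545.0 FPKM there, to 463.1 and 430.1 FPKM in knockout replicates 2 and 3 and to 233.0 to 287.7 FPKM in wild type, so much of its level was not particular to that library. Knockout replicate 1 was higher than any other library for 44 of the 73. In 4 it stood apart by at least 2, beside 0.432% of all rows, and the median difference was 0.06. The 4 were Cltrn, collectrin, which places amino acid carriers at the brush border (56.1 FPKM, against 0.262 to 1.84 FPKM elsewhere), Tmem52b (9.86 FPKM, against 0), the organic anion carrier Slco1a6 (7.80 FPKM, against at most 0.0219 FPKM) and the potassium channel Kcnj16 (12.4 FPKM, against 0.190 to 1.84 FPKM). Smaller values stood alone in that library for Kcnj1, the potassium channel of the thick ascending limb, at 1.74 FPKM against at most 0.103 FPKM. The epidermal growth factor gene Egf was at 1.85 FPKM there against at most 0.0929 FPKM. S100g, the second calbindin of the connecting tubule, was at 1.87 FPKM there and at 0 in the other 5. The patterning factor Hoxd8 was at 3.19 FPKM there and at 0.0461 to 0.997 FPKM elsewhere. By segment, knockout replicate 1 was highest for 12 of 27 other proximal tubule genes, 8 of 8 other loop of Henle genes, 3 of 6 other distal and connecting tubule genes, 7 of 10 other collecting duct genes, 2 of 6 other podocyte genes and 12 of 16 patterning factors. Beside these counts and the 44 of 73, that library was highest for 13.3% of the 6938 rows that reached 1 FPKM in any library. That limit was not set for the 73, and some of these counts rest on a few reads. Knockout replicate 1 held 1 read of Cldn16 (loop of Henle) and 2 reads of Slc4a1 (collecting duct), too few to give an order. In the collecting duct list, Atp6v1b1, a proton pump subunit of intercalated cells, was at 0.717 FPKM (77 reads) there and at 0 in the other 5, at least 21.4-fold above the 3-read floor, and the water channel Aqp3 held 10 reads there and 0 elsewhere. Aqp4, another water channel, was at 1.41 FPKM there, below the 2.76 to 3.75 FPKM of the wild type libraries. The 6 other podocyte genes summed to 0.838 FPKM, against 0.501 to 0.799 FPKM elsewhere.

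**Figure D2:**
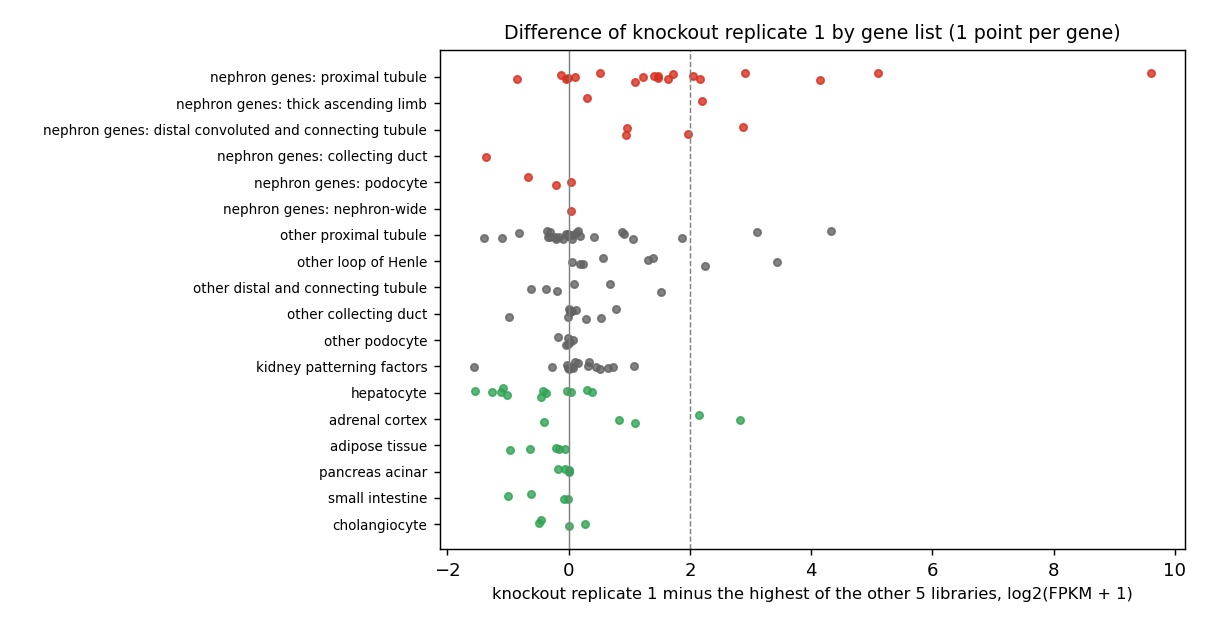
Difference between knockout replicate 1 and the highest of the other 5 libraries on log2(FPKM + 1), 1 point per gene, for the nephron genes (red), the second kidney list (grey) and lists of other cell types (green), with the limit of 2 dashed and the adrenal medulla and erythroid lists not drawn. Points beyond the limit lie in 3 of the 6 nephron segment groups, among other proximal tubule and loop of Henle genes, and in the adrenal cortex list.

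Of the lists for other organs and cell types, that of the adrenal cortex was high in knockout replicate 1 with the nephron genes. Of its 5 genes analysed, 4 were highest there and Mrap was not (1 read, against 23 and 9 in the other knockout libraries), and the list summed to 18.5 FPKM against 0.595 to 1.16 FPKM in the other 5. Star, which delivers cholesterol for steroid synthesis, was at 13.1 FPKM against 0.560 to 0.986 FPKM, and Cyp11b1, the last enzyme of corticosterone synthesis, was at 3.48 FPKM against at most 0.0118 FPKM. Both passed the limit of 2. Of 5 adipose genes analysed none was highest in that library, and the sum was 7.07 FPKM there, 11.0 FPKM in knockout replicate 3 and 0.275 to 1.06 FPKM in the other 4. Adipoq, the adipocyte hormone adiponectin, was at 3.25 and 3.44 FPKM in those 2 libraries. The 5 pancreatic acinar genes analysed were at 0 in knockout replicate 1. The single adrenal medulla gene analysed was at 0.0446 FPKM there and at most 0.0277 FPKM elsewhere. The small intestine list summed to 28.8 FPKM in knockout replicate 1, below the 57.9 and 29.8 FPKM of the other knockout libraries, and most of it was Fabp2. The cholangiocyte sum of 50.9 FPKM and the erythroid sum of 0.892 FPKM lay inside the ranges of the other 5. The part of other tissue in the nephron values was not tested.

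Of the 30 rows that stood apart in knockout replicate 1, 8 were nephron genes, 4 other kidney genes and 2 adrenal cortex genes, and 16 were on no list, 3 of them predicted models or pseudogenes. Among annotated genes on no list, ordered by the difference to the highest other library, the hydroxysteroid dehydrogenase Akr1c21 came highest, at 83.1 FPKM against 0.260 to 0.926 FPKM (5.45 on the log2 scale). Tmigd1, a cell adhesion protein, was at 12.0 FPKM against 0.0371 to 0.300 FPKM, the nuclear receptor Nr4a2 at 10.7 FPKM against 0.178 to 0.277 FPKM, Lrrc19 at 16.2 FPKM against 0.142 to 0.961 FPKM and the potassium channel Kcnj15 at 8.29 FPKM against 0.00801 to 0.0711 FPKM. Cyp2j11 (5.89 FPKM), Slc22a22 (5.40 FPKM) and the brush border protease Mep1a (4.96 FPKM) were at 0 in the other 5 libraries. Fut9, Gcnt1, Srd5a2 and the tight junction gene Cldn8 completed the 12 genes named by this rule, with differences of 2.15 to 2.77. Akr1c21, Cyp2j11 and Slc22a22 belong to families with similar copies, among which the counting could have split reads, so their levels are uncertain.

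**Figure D3:**
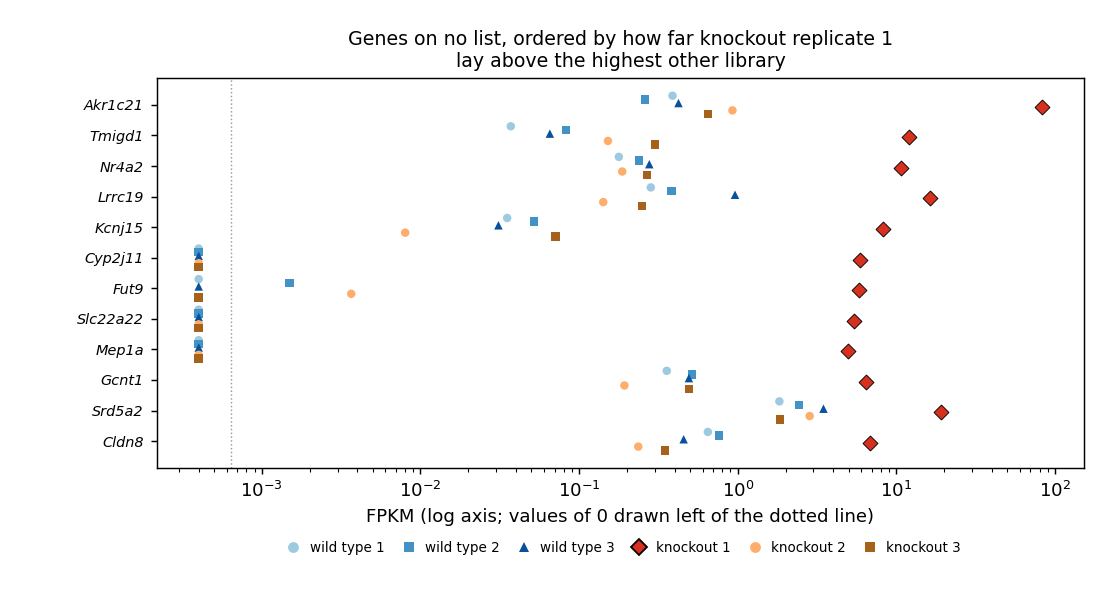
FPKM (log axis) of the 12 genes on no list that lay farthest above the other libraries in knockout replicate 1, with values of 0 drawn left of the dotted line. Knockout replicate 1 (red diamonds) lies between 4.96 and 83.1 FPKM, and no other library exceeds 3.47 FPKM.

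Nephron genes at high levels in knockout replicate 1 had transcripts of lower GC content than those at low levels. The longest annotated transcript of the 8 genes that stood apart held 36.8% to 50.7% GC (median 43.3%), and that of the 11 nephron genes under 1 FPKM in knockout replicate 1 held 46.4% to 56.4% (median 52.0%). The 9 listed genes whose expression is not analysed here held 54.5% to 63.2% (median 56.3%), beside a median of 45.0% over all rows with at least 1 FPKM in any library. Spearman's rho between GC content and FPKM in knockout replicate 1 was -0.69 across the 30 nephron genes and -0.60 across the 103 nephron and other kidney genes. Across 6798 rows it was -0.23 in knockout replicate 1, -0.17 and -0.22 in the other knockout libraries and -0.37 to -0.41 in the wild type libraries. The points of each correlation share 1 library and its depth, and genes are not independent replicates. The part of GC content in the nephron levels was not tested.

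**Figure D4:**
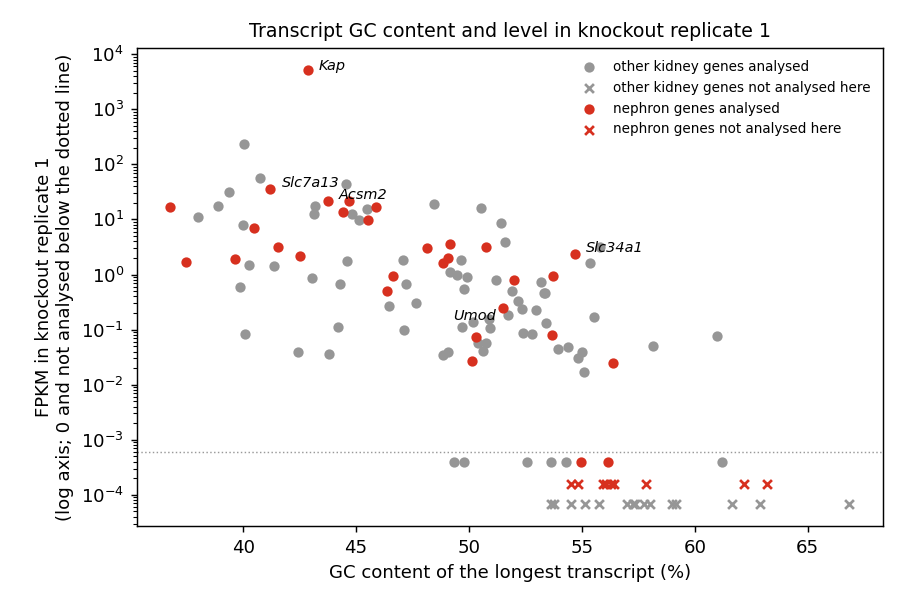
GC content of the longest transcript (percent) against FPKM in knockout replicate 1 (log axis) for nephron genes (red) and other kidney genes (grey), with genes at 0 and genes not analysed here drawn below the dotted line. Kap, Slc7a13 and Acsm2 lie at low GC content and high FPKM, and the 9 nephron genes whose expression is not analysed here lie between 54.5% and 63.2%.

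The labelled comparison, knockout against wild type, was fitted with limma on log2(FPKM + 1) over the 5651 genes that reached 1 FPKM in 3 or more libraries. At a Benjamini-Hochberg adjusted p under 0.05, the knockout group was higher for 1907 genes (33.7%) and lower for 1158 (20.5%), or for 1442 and 1889 with each library centred on its median. Of the 30 nephron genes 5 passed that filter, of which 2 were called higher, 2 lower and 1 was not called. Slc17a3 rose from 6.15 ± 4.11 to 13.9 ± 1.07 FPKM (SD, n = 3 each), a log2 difference of 1.21 (SE 0.35, limma adjusted p = 0.0190). Slc17a1 rose from 4.25 ± 2.09 to 12.6 ± 8.17 FPKM, by 1.27 (SE 0.45, adjusted p = 0.0435). Slc4a4 fell from 23.6 ± 6.93 to 14.3 ± 3.15 FPKM, a log2 difference of -0.67 (SE 0.25, adjusted p = 0.0498). Atp6v0d2 fell from 9.19 ± 0.477 to 2.95 ± 0.905 FPKM, a log2 difference of -1.39 (SE 0.20, adjusted p = 0.00095), with every knockout library below every wild type library. The median log2 difference of all genes tested was 0.12, and with median centring Slc17a1 was no longer called (0.99, adjusted p = 0.0943). Kap, despite its level in knockout replicate 1, was not called (log2 difference 5.79, 95% interval -1.72 to 13.31, adjusted p = 0.154), with the knockout libraries at 1757.9 ± 3036.2 FPKM (SD, n = 3). It reached 1 FPKM in the knockout libraries alone, with at most 0.0785 FPKM in wild type. The filter therefore kept Kap through the group where it was high, which set the direction of its difference. Of the 4 calls, 3 depended on which libraries were kept. Slc17a1 was not called without wild type replicate 2 (limma adjusted p = 0.105), wild type replicate 3 (0.130) or knockout replicate 2 (0.0980), and Slc17a3 missed the threshold without the same libraries (0.0641, 0.0656 and 0.0700). Slc4a4 lost its call without wild type replicate 1 (adjusted p = 0.0824), wild type replicate 3 (0.160), knockout replicate 2 (0.166) or knockout replicate 3 (0.0811). With no filter, all 30 nephron genes could be fitted and limma called Atp6v0d2 alone, lower (adjusted p = 0.0067), beside 15.7% of 20354 genes higher and 5.18% lower, and 2 nephron genes were higher and 2 lower at an unadjusted p under 0.05.

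Left without knockout replicate 1, the comparison no longer used the library that the genes were chosen for being high in. The other 5 libraries also entered that choice, so the calls that follow are not independent of it. Slc17a1 and Slc17a3 then kept their direction and missed the threshold (0.81, adjusted p = 0.0833, and 1.21, adjusted p = 0.0512), while Slc4a4 (-0.79, adjusted p = 0.0479) and Atp6v0d2 (-1.45, adjusted p = 0.0034) were called lower, where limma called 25.0% of 4976 genes higher and 20.9% lower. With no filter on level, 24 nephron genes could be fitted in those 5 libraries. Kap (2.52, SE 0.15, adjusted p = 0.0051) and Acsm2 (0.33, SE 0.04, adjusted p = 0.0086) were then called higher and Atp6v0d2 (-1.45, adjusted p = 0.0137) lower, where 20.1% of 19714 genes were called higher and 4.58% lower. The 2 higher calls rest on low values in knockout replicates 2 and 3. Kap was there at 0.0795% and 0.109% of its level in knockout replicate 1, and Acsm2 at 1.33% and 1.18%. The source of these reads was not tested. Slc12a1 (-0.64, adjusted p = 0.135), Calb1 (-0.60, adjusted p = 0.126) and Slc6a19 (-0.10, adjusted p = 0.050) were not called. In knockout replicates 2 and 3, 4 of the 24 genes lay above every wild type library in both (Kap, Acsm2, Slc17a3 and Napsa), beside 37.2% of rows, and 6 lay below every wild type library in both (Lrp2, Slc6a19, Slc4a4, Slc12a1, Calb1 and Atp6v0d2), beside 12.6%. Napsa is counted on 1 and 2 reads, too few to give an order.

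**Figure D5:**
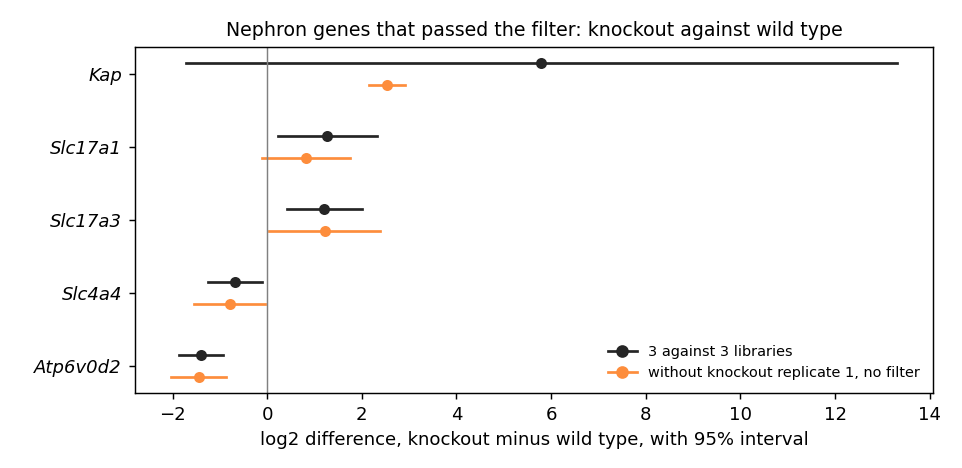
Log2 difference, knockout minus wild type, with its 95% limma interval for the 5 nephron genes that passed the filter, over 3 against 3 libraries (black) and without knockout replicate 1 and without a filter (orange). The interval of Kap spans -1.72 to 13.31 with knockout replicate 1 and 2.14 to 2.91 without it, and Atp6v0d2 stays below 0 in both.

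In the second kidney list, 16 genes were tested in the fit of 3 against 3. Of these, 7 were higher, 4 lower and 5 not called, beside 33.7% of all genes tested higher and 20.5% lower in the same fit. Their median log2 difference was 0.63, beside 0.12 over all genes tested. In that fit the 10 hepatocyte markers tested had a median of 1.545, with 7 called higher and 0 lower. Slc22a30, a member of an organic anion transporter family whose similar copies make its level uncertain, rose from 117.6 ± 36.6 to 269.6 ± 29.8 FPKM (SD, n = 3 each, limma adjusted p = 0.0035), and Aadat, an aminotransferase of lysine and tryptophan breakdown, from 11.4 ± 4.49 to 44.0 ± 11.6 FPKM (adjusted p = 0.0012). Both were present in every library, at no less than 92.5 and 7.83 FPKM. The part of liver cells in these differences was not tested. Sall1, a transcription factor of kidney formation, fell from 11.6 ± 1.72 to 4.84 ± 0.842 FPKM (adjusted p = 0.0017). Cltrn and Kcnj16, which stood apart in knockout replicate 1, were not called (0.95, adjusted p = 0.660, and 0.17, adjusted p = 0.899).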

How the data were processed

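RNA was measured by RNA-seq in 6 liver libraries, 3 per labelled genotype, from frozen livers extracted with Trizol, per the labels' protocols. HISAT2 and GRCm39 are named in the submitters' processing notes. The sources used here do not give the counting tool or the annotation. Each table holds deposited FPKM values, made by the authors, with an identifier and a symbol per row, per the file headers. The code in the header of knockout replicate 3 differs from its title, and the label was used.

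Identifier and symbol named the same gene in 0 of 24927 rows. FPKM multiplied by exon length (GENCODE M21, GRCm38) gave whole reads for 98.91% of 43482 low values by symbol and 30.0% by identifier, so symbols were used. Left out were 1787 rows of a chromosome 1 block, where the share was 35.7%, 127 rows without a symbol and repeated symbols. Reads and depths in the text come from these steps.

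The limma fit (3.58.1, R 4.3.3) used log2(FPKM + 1), a mean-variance trend, robust moderation, genotype as the only term and genes that reached 1 FPKM in 3 or more libraries, with p-values adjusted over all genes tested. The scale understates changes of low genes. The fit was tested on simulated data. A ratio against 5 libraries at 0 is computed against 3 reads in 1 of those libraries, for counting error only, and no ratio is given where the next library held 1 to 3 reads. Named were all 39 members, up to 4 genes per other kidney list at 1 FPKM or more in knockout replicate 1, up to 3 per other cell type list, and 12 genes on no list by their difference there. Slco1a6, Atp6v1b1, Aqp3, Mrap, Arg1, Pck1, Hnf4a, Apoa1, Ass1, Cldn16 and Slc4a1 were named outside this rule, after their values were seen. Members and lists were chosen with earlier results of these data known. Alternatives were another pseudocount, filters, scalings, moderation, a replicate block and leaving out each library. Other steps used Python 3.11.15 with pandas 2.3.3, scipy 1.17.1 and matplotlib 3.10.9.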

Additional observations from a re-analysis of the deposited data

How the results depend on the processing

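Knockout replicate 1 stood apart for 8 nephron genes and for 30 of all rows. These numbers were 15 and 88 with a pseudocount of 0.1, 16 and 109 at a difference of 1, 3 and 11 at a difference of 3, and 17 and 106 with values rescaled over non-mitochondrial rows. Against the other 2 knockout libraries they were 8 and 38, and leaving out each other library gave 8 nephron genes each time and 31 to 40 rows. In limma, 1907 genes were higher and 1158 lower. With no filter these were 3193 and 1054, at 10 FPKM or more 468 and 559, rescaled over non-mitochondrial rows 2383 and 2129, with median centring 1442 and 1889, and with no filter and without knockout replicate 1, an alternative chosen after seeing the data, 3965 and 903. Leaving out 1 library gave 964 to 1951 higher and 727 to 1040 lower, with 1245, 964 and 1054 higher without knockout replicates 1, 2 and 3 and 727 lower without wild type replicate 3. The nephron genes called were 2 higher and 2 lower. They were 2 and 1 with a pseudocount of 0.1 and with moderation that is not robust, 0 and 1 with no filter, 1 and 1 at 10 FPKM or more, 0 and 2 rescaled, 1 and 2 with median centring, 2 and 1 with no filter and without knockout replicate 1, and 0 to 2 higher and 1 to 2 lower when 1 library was left out. Where limma called none higher, 1 or 2 nephron genes were higher at an unadjusted p under 0.05. Atp6v0d2 was called lower in all 13 alternatives that fitted it. Slc17a1 lost its call in 8 of 13 alternatives, Slc17a3 in 7 of 14 and Slc4a4 in 8 of 14, and the cause was not tested. With the replicate block 1735 genes were higher and 1032 lower, and the same numbers of nephron genes were called, 2 and 2. Deviations from the group means correlated at -0.05, -0.10 and 0.18 between same-numbered libraries, inside the -0.35 to 0.35 of the other pairs. With 3 libraries per group this shows no pairing by number but cannot exclude it. The filter keeps out 25 of the 30 nephron genes, and depth limits those with a few reads, such as Nphs1 and Pax8 with 4 reads.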
